A study of Mus musculus with 8 samples.

Results

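The colon was the tissue in which DDX5 was immunoprecipitated under 2 antibody names, mAb and rAb, and the peaks of these 2 CLIP samples are set against each other here. A pair was defined as a mAb peak and a rAb peak that shared at least 1 base on the same strand, and a gene was taken as called in a list when it held at least 1 peak there. This gave 3291 pairs from 16455 mAb peaks and 9146 rAb peaks, out of 26879 listed regions in the labelled lists of the whole series. Of the 6108 genes called in either list, 2689 were called in both, 2500 in the mAb list alone and 919 in the rAb list alone.

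All samples came from C57BL/6 mice, and the colon samples were epithelial cells (IECs) released by EDTA. Each antibody had 1 CLIP sample and 1 size-matched input, out of 8 samples in the series. The genotype label called the colon samples wild type, whereas the growth protocol placed the mAb and rAb samples in 120-day-old mice with 1 floxed Apc allele and a Cre recombinase under the Cdx2 promoter, which is active in intestinal epithelium. Both samples carried an identical antibody catalogue number in the labels, and the names of both lists mark them as merged from replicates 1 and 2. The study's methods describe IEC eCLIPseq on young adult wild-type females, with 1 mouse for each of 2 replicates, without naming the tissue or these antibodies, so that text gives another age and genotype than the growth protocol. A figure legend of the study does name the colon, and places that eCLIPseq in IECs of 2 wild-type mice. What separates mAb from rAb beyond the name, and which animals the lists hold, could not be settled. With 1 list per antibody no test between the lists was possible, and every interval below covers counting error only. Reads of a library are not independent beyond their molecular identifiers.

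DDX5 is an RNA helicase of the DEAD-box family that takes part in transcription, splicing, microRNA processing and ribosome assembly, and it works largely in the nucleus. In eCLIPseq, UV light links a protein to the RNA it touches, the protein is pulled down, and the RNA fragments left on it are sequenced beside an input library from the same lysate. A peak is a stretch of transcript where IP reads pile up. Its log2 fold compares IP with input reads after correction for library depth, and its −log10 p says how unlikely these read numbers are without a difference. A peak with both values at 3 or more is called a site, and other peaks are below the cutoff.

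Sequences of peaks shared by the lists and of peaks that differ between them are shown first. They come from the bound strand of GRCm38, with 15 bases added on either side of the peak. The first set has, in the peak or its flank, the 7-base word that recurred most often, over distinct genes, in the enriched rAb peaks (TCGGAAG, in capitals). These 7 genes had overlapping sites in both lists.
C3 (coding sequence, rAb peak, minus strand, chr17:57210161-57210264): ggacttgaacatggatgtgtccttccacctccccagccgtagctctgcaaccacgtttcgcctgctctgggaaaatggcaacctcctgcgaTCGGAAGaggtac
Cnot8 (coding sequence, rAb peak, plus strand, chr11:58115250-58115318): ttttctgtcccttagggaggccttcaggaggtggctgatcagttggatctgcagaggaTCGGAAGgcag
Xpo6 (coding sequence, rAb peak, minus strand, chr7:126160952-126161040): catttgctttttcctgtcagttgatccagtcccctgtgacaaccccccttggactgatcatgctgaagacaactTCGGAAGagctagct
Baz2a (coding sequence, rAb peak, plus strand, chr10:128122312-128122443): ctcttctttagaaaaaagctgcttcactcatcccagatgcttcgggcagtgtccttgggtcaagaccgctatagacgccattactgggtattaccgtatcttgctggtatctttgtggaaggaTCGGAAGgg
Rnf43 (coding sequence, rAb peak, plus strand, chr11:87727315-87727437): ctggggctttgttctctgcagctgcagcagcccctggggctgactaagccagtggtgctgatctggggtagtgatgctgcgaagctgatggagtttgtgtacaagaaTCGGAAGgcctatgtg
Prr13 (coding sequence, rAb peak, plus strand, chr15:102460541-102460674): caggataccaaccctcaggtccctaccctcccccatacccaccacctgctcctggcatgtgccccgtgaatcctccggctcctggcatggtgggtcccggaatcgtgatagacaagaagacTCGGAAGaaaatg
Ubr4 (coding sequence, rAb peak, plus strand, chr4:139458188-139458240): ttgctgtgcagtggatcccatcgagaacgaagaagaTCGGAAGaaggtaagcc

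The second set shows the G-rich words (GGAGGGG and GGGCGGG, in capitals) that recurred most in mAb sites that overlap no rAb site.
Errfi1 (proximal intron, mAb peak, plus strand, chr4:150855261-150855404): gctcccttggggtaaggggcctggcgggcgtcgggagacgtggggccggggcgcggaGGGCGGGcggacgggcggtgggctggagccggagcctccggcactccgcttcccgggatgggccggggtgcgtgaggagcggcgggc
Pdlim5 (proximal intron, mAb peak, minus strand, chr3:142395413-142395507): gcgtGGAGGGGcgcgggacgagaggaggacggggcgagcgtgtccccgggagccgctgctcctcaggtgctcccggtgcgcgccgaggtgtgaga
Actb (proximal intron, mAb peak, minus strand, chr5:142906166-142906237): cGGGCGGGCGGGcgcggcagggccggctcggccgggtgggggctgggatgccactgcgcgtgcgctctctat
Muc2 (proximal intron, mAb peak, plus strand, chr7:141751942-141752003): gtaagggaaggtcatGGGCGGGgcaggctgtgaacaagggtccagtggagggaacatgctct

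The third set holds, for 3 genes, the peak with the largest difference in fold between the lists.
Neat1 (exon of a non-coding transcript, mAb peak, minus strand, chr19:5834453-5834550): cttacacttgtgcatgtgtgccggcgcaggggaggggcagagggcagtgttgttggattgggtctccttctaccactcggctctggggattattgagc
Arid4a (proximal intron, mAb peak, plus strand, chr12:71016589-71016634): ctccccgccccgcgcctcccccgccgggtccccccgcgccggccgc
Igkc (coding sequence, rAb peak, plus strand, chr6:70726450-70726491): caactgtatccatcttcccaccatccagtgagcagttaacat

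Both lists were dominated by peaks with few reads. Their median width was 48 bases in each. The commonest log2 fold, 2.15 in the mAb list (25.8% of peaks) and 3.24 in the rAb list (24.9%), was taken to stand for 3 IP reads and 1 input read, which puts the depth of input relative to IP at 1.48 in mAb and at 3.15 in rAb. Whole reads that gave the deposited fold and p could then be found for 13007 of 13011 mAb peaks and for all 8282 rAb peaks that had a −log10 p above 0 and below the cap of 400. The same IP reads over an input of 1 read thus give a fold lower by 1.09 on the log2 scale in the mAb list than in the rAb list, from the depth ratios alone. The depth ratios enter every fold, but the shift of 1.09 holds for equal IP reads at an input of 1 read. Its part in the signed differences below was not tested. The median difference, mAb minus rAb, was -0.81 in the 107 pairs with an input of 1 read on both sides. It was -0.51 in the 1442 pairs with at least 2 input reads on both sides.

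A larger share of the rAb list was found again in the mAb list than the reverse, which follows from the sizes of the lists. The shared genes are the same on both sides, the paired peaks are nearly equal in number, and the rAb list is the shorter one. In all, 2995 mAb peaks (18.2%, 95% interval 17.6 to 18.8) and 2931 rAb peaks (32.0%, 31.1 to 33.0) were in a pair. The shared genes were 51.8% (50.5 to 53.2) of those in the mAb list and 74.5% (73.1 to 75.9) of those in the rAb list. Pairs lay on 1374 genes, 2 of which were called in 1 list because the partner peak was assigned to an overlapping gene. A further 1317 shared genes had peaks in both lists that did not touch each other. Where peaks did overlap, the shorter one typically lay wholly inside the longer one, with a median overlap of 33 bases. The ends were a median of 11 bases apart at the 5′ side and 10 at the 3′ side, and 53 pairs (1.61%) had identical intervals. Adjacent peaks often divide a single stretch and share reads: after joining peaks within 10 bases, 14908 mAb and 7847 rAb stretches gave 2650 pairs.

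Whether a peak was found again went with its depth. Of mAb peaks with 1 to 4 IP reads, 4.43% were in a pair, and this share was 21.02% at 5 to 9 reads, 57.9% at 10 to 19 and 83.5% from 20 reads up. The shares for rAb peaks were 14.8%, 52.2%, 88.4% and 97.5% in the same bins. Peaks of exactly 3 IP reads over 1 input read made up 35.6% of the unpaired mAb peaks with traced reads and 3.68% of the paired ones. In the rAb list they made up 35.8% and 3.69%. At so few reads, absence from the other list cannot be told from a lack of depth.

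Structured non-coding RNAs were the classes most often called in both lists. Small nucleolar RNAs (snoRNAs and scaRNAs), which guide chemical modification of ribosomal and spliceosomal RNA, had 137 shared genes, 84.6% (78.1 to 89.8) of those in the mAb list and 93.2% (87.8 to 96.7) of those in the rAb list. Ribosomal RNA genes had 35 shared, 81.4% of the mAb and 85.4% of the rAb genes. Small nuclear RNAs, the RNA core of the spliceosome, had 24 shared, 68.6% and 92.3%. Protein-coding genes had 2432 shared, 50.7% (49.3 to 52.1) and 73.7% (72.2 to 75.2). Long non-coding RNAs were shared less, with 39 genes making up 39.0% (29.4 to 49.3) of the mAb and 65.0% (51.6 to 76.9) of the rAb list. The class of pseudogenes and other genes was mostly in 1 list, with 2 shared of 15 and 13. The intervals of snoRNAs did not overlap those of protein-coding genes in either list, while those of small nuclear RNAs did. Copies of small RNA genes can share reads, so the gene counts of these classes are uncertain. A call also did not require enrichment over input. SnoRNA and scaRNA pairs had a median log2 fold of -0.79 in mAb and 0.05 in rAb. Of their peaks, 0 of 257 in mAb and 1 of 217 in rAb were sites. Small nuclear RNA pairs had 0.39 and 1.17, and ribosomal RNA pairs 1.47 and 2.46, against 0.47 and 1.07 over all pairs.

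**Figure D1:**
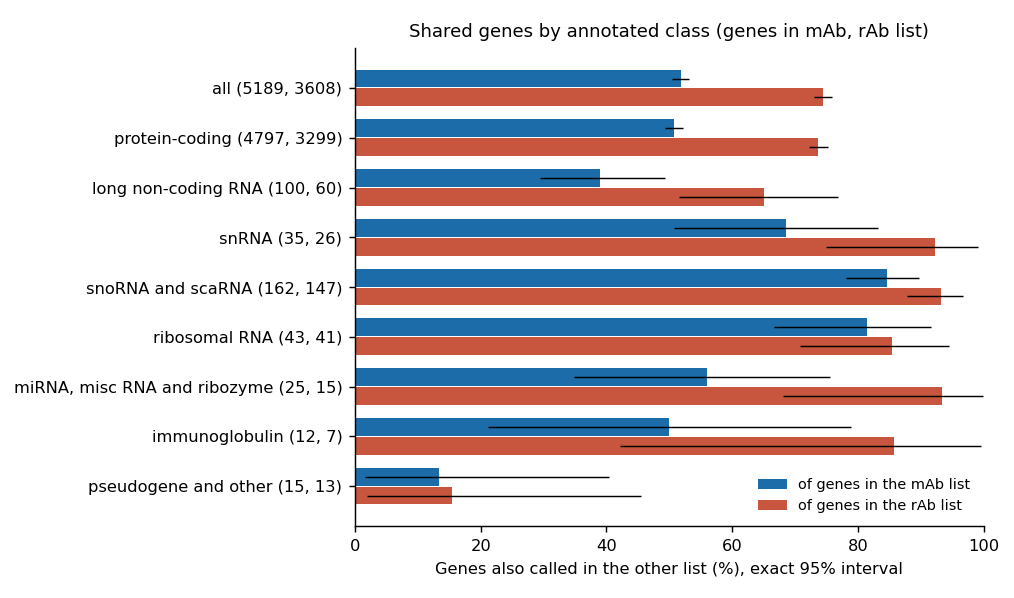
Share of called genes that were also called in the other list, by annotated class. Bars give the percent of the mAb genes (blue) and of the rAb genes (red), lines the exact 95% interval, and numbers in brackets the genes in each list. Small nucleolar RNAs reach 84.6% and 93.2%, the class of pseudogenes and other genes 13.3% and 15.4%.

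By region, exons of non-coding transcripts were most often shared, with 57.3% of their mAb peaks and 74.1% of their rAb peaks in a pair. Coding sequence had 20.8% and 32.9%, the 5′ UTR 21.4% and 39.7%, and the 3′ UTR 14.96% and 23.9%. Introns were least often shared. Proximal introns (within 500 bases of an exon) had 5.61% of mAb and 15.5% of rAb peaks in a pair, and distal introns 3.92% and 10.9%. Distal introns made up 22.1% of the unpaired mAb peaks and 4.04% of the paired ones, and 15.7% and 4.09% in the rAb list. Coding sequence made up 56.9% of paired mAb peaks against 48.2% of unpaired ones, and 57.0% against 54.8% in the rAb list.

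Within pairs the rAb fold was usually the higher one. The median log2 fold was 0.47 for mAb and 1.07 for rAb, and the median difference, mAb minus rAb, was -0.67 (95% interval of the median -0.68 to -0.62, quartiles -1.27 and -0.09). The mAb fold was higher by at least 1 in 168 pairs (5.1%) and the rAb fold in 1155 (35.1%). With differences centred on the median of all pairs, which by construction brings the sides near balance, the counts were 476 and 508. The median was -0.51 in the 1442 pairs with at least 2 input reads on both sides and -0.61 in the 512 pairs with at least 10 IP reads on both sides.

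**Figure D2:**
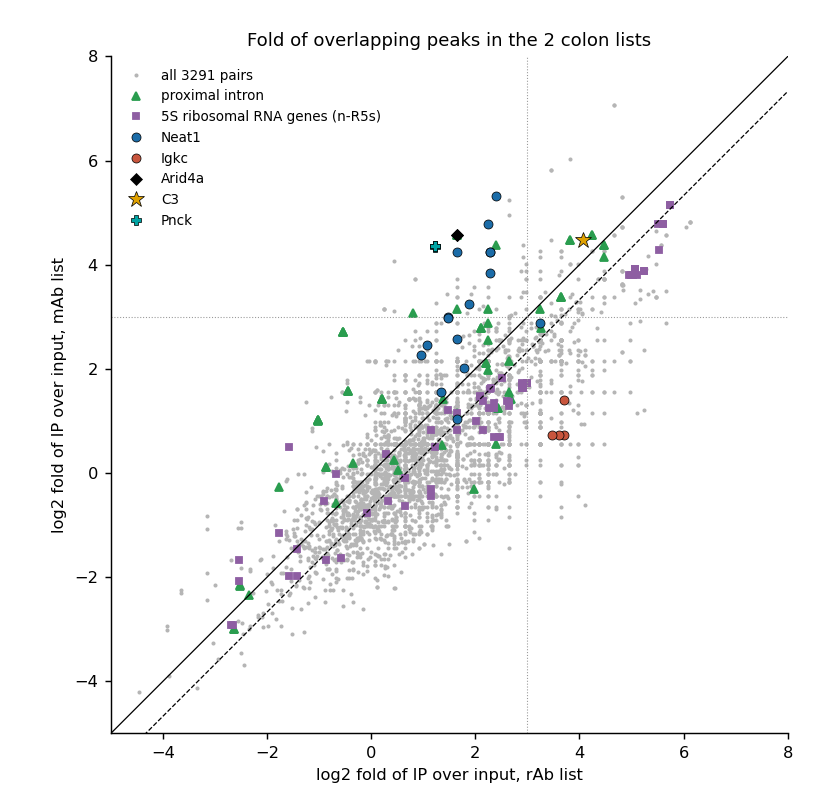
Log2 fold of IP over input of each of the 3291 pairs, mAb list against rAb list. The solid line marks equal folds, the dashed line the median difference of -0.67, and the dotted lines the cutoff of 3. The Neat1 pairs and most proximal intron pairs lie above the dashed line, and the 4 Igkc pairs lie far below it.

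Some classes departed from this offset. Pairs in proximal introns had a median difference of 0.36 (95% interval -0.09 to 0.91, 64 pairs on 38 genes), the one region with a median above 0, against -0.68 in coding sequence (1773 pairs), -0.77 in the 5′ UTR, -0.73 in the 3′ UTR, -0.61 in non-coding exons and -0.58 in distal introns. With 1 value per gene the proximal intron median was 0.05, with an overlap of at least 50% of both peaks it was 0.0028, and in the 25 pairs with at least 2 input reads on both sides it was below 0, at -0.095 (-0.51 to 0.68). The 44 proximal intron pairs within 1000 bases of an annotated transcript start lay on 25 genes and had a median of 0.68. The other 20 lay on 13 genes and had a median of -0.14. Some proximal intron pairs of a gene, such as those of Afg3l1, repeat the same read numbers. No median with 1 value per gene was computed for this split. Pairs of other regions had a median of -0.68 both near a start (1600 pairs) and farther away (1627 pairs). By class, ribosomal RNA pairs had a median of -1.13 (-1.18 to -0.83, 91 pairs), below that of all pairs. Long non-coding RNA pairs had -0.30 (-0.47 to -0.16, 171 pairs on 30 genes) and small nuclear RNA pairs -0.19 (-0.52 to -0.02, 45 pairs). With 1 value per gene these 3 medians were -1.02, -0.60 and -0.07, against -0.71 for all pairs. Long non-coding RNAs then lay near the offset, so their departure rested on genes with many pairs. The immunoglobulin median of -1.04 (-1.55 to -0.54, 19 pairs) had an interval that included the overall median. The median of miRNA, misc RNA and ribozyme pairs was 0.11 (-0.72 to 0.40, 25 pairs). SnoRNA pairs sat at the overall median (-0.67, 248 pairs).

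To ask which single pairs differed by more than their reads allow, the 95% intervals of both folds were compared in the 1773 pairs with traced reads. The mAb interval lay wholly above in 7 pairs (0.395%) on 3 genes and the rAb interval in 51 pairs (2.88%) on 23 genes. After the mAb folds were shifted by the median difference, these were 56 pairs on 17 genes and 9 pairs on 4 genes. Arid4a and Neat1 were above in mAb, and Igkc, Snord88c, n-R5s71 and n-R5s162 above in rAb, under both treatments. Gm42418, a non-coding RNA that overlaps ribosomal RNA repeats, also had pairs with the mAb interval above under both, and had other pairs with the rAb interval above as deposited. The n-R5s genes are copies of the 5S ribosomal RNA gene. They are nearly alike, so reads may have been placed on any of them and the values of a single copy are uncertain.

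Neat1, the long non-coding RNA that scaffolds nuclear paraspeckles, was the clearest gene on the mAb side. It had 30 mAb and 21 rAb peaks, of which 12 and none were sites. Its pair with intervals apart (mAb peak chr19:5840811-5840913) had a log2 fold of 4.25 (3.40 to 5.23) from 154 IP over 12 input reads in mAb and of 1.65 (0.68 to 2.62) from 20 over 20 in rAb. The peak shown above had the largest difference, 5.32 from 27 over 1 reads in mAb against 2.39 from 5 over 3 in rAb. Over its 16 pairs the median difference was 1.44 (-0.61 to 2.93), and 14 of them favoured mAb. Malat1, a second abundant nuclear RNA whose gene lies beside Neat1, did not show this. It had 29 and 24 peaks, none past the cutoff, and a median difference of -0.32 over 30 pairs, with 2 of them apart on the rAb side. The deepest mAb peaks of Neat1 and Malat1 held 167 and 215 IP reads, and their deepest rAb peaks 20 and 219.

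Arid4a, a chromatin-binding partner of the retinoblastoma protein, had a mAb peak in a proximal intron (chr12:71016604-71016619) with a log2 fold of 4.56 (3.60 to 5.72) from 144 IP over 9 input reads. The overlapping rAb peak had 1.65 (0.37 to 2.94) from 12 over 12 reads. Its sequence above is made almost wholly of C and G. Pnck, a calcium/calmodulin-dependent kinase, had 3 adjoining mAb peaks in its 5′ UTR at the cap of −log10 p with a log2 fold of up to 4.36, where rAb had 1.23 (0.76 to 1.69) from 70 over 94 reads. Reads at the cap could not be traced, and no interval is given for mAb. Ctnnb1, which encodes β-catenin of the Wnt pathway and of adherens junctions, had a 5′ UTR pair of 5.24 from 51 over 2 reads in mAb and 2.65 from 4 over 2 in rAb. The intervals of this pair were not apart. It had the highest difference of the 8 Ctnnb1 pairs, whose median was -0.69 and whose lowest was -1.52, so the gene as a whole lay near the offset.

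On the rAb side, Igkc, the constant region of the immunoglobulin kappa light chain made by plasma cells, stood farthest out among the coding pairs with intervals apart. The mAb fold was 0.74 (0.19 to 1.29) from 62 IP over 55 input reads, and the rAb fold was 3.70 (3.10 to 4.36) from 116 over 28. All 4 of its pairs were apart, with differences between -2.97 and -2.31, and all 3 of its rAb peaks but neither of its 2 mAb peaks were past the cutoff. The 2 rAb peaks beside the highest had folds of 3.61 and 3.47. Each of the 3 rAb peaks had 116 IP reads, over 28, 30 or 33 input reads. They may thus hold the same reads, and the 4 pairs are not separate observations. Of 11 immune markers, Lyz2, Cd74 and Jchain were called in each list, with 20 mAb and 17 rAb peaks and no site, and the leukocyte, T cell and B cell markers Ptprc, Cd3e, Cd3g, Cd79a and Cd79b were called in neither. The part of immune cells in the Igkc difference was not tested. Among non-coding RNAs, Gm22058 had 0.95 (-0.18 to 2.11) in mAb and 4.09 (2.69 to 5.82) in rAb. Zfas1, a host gene of snoRNAs, had 2.27 (1.57 to 3.03) and 3.98 (3.16 to 4.88). A 5′ UTR peak of 2410002F23Rik had 2.35 and 4.01. Pabpc1, the poly(A)-binding protein, had 0.24 (-0.60 to 1.07) and 2.44 (1.56 to 3.36) in coding sequence, and Rpl13a, a protein of the large ribosomal subunit, had 0.98 and 2.69.

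**Figure D3:**
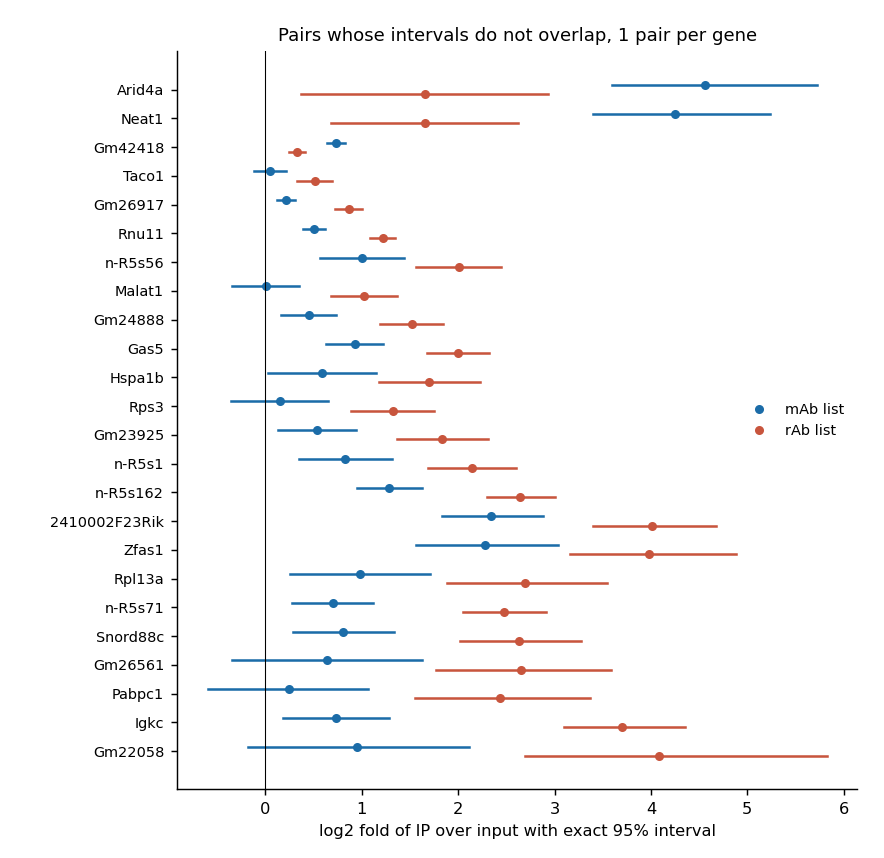
Pairs whose exact 95% intervals did not overlap, 1 pair for each of 24 genes, with the log2 fold of IP over input in the mAb list (blue) and rAb list (red). Points are the deposited folds and lines the intervals. Arid4a, Neat1 and Gm42418 have the mAb fold above, and the other 21 genes the rAb fold above.

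Sites were 1.22% of the mAb peaks (201 on 138 genes) and 1.99% of the rAb peaks (182 on 109 genes). Nearly all rAb sites had an overlapping mAb peak of any height (169, 92.9%), as against 123 mAb sites with a rAb peak (61.2%, 54.1 to 68.0). The mAb list offers more peaks to overlap (16455 against 9146), so these shares, and the counts of genes not called below, are not on an equal footing. Genes with a site in both lists were 49, which is 35.5% (27.6 to 44.1) of the mAb and 45.0% (35.4 to 54.8) of the rAb site genes. A further 60 mAb site genes were called in the rAb list without a site and 29 of the 138 (95% interval 14.5% to 28.8%) were not called there. Of the rAb site genes, 59 were called in the mAb list without a site and 1 was not called. The regions of the sites differed as well: coding sequence held 84 rAb sites (46.2%) and 47 mAb sites (23.4%), and proximal introns 8 (4.40%) and 40 (19.9%).

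In 94 pairs on 48 genes both peaks were sites. Among those with the highest lower fold of the 2 lists was n-R5s158 (5.15 in mAb and 5.74 in rAb). Others were Ak7, an adenylate kinase of cilia, with 5.29 from 53 over 2 reads and 4.82 from 18 over 2. Further down were the non-coding RNA Gm805 (4.81 and 6.11), n-R5s2 (4.79 and 5.51, both at the cap), Mettl8, an RNA methyltransferase (4.73 and 6.05), and the protease Tmprss11f (4.73 and 4.82). The SUMO protease Senp2 had 4.65 and 5.46. Except for the 5S copies and Ak7, these mAb folds rested on an input of 1 read, so their upper bounds are open. Of the 49 genes, 41 were left without peaks that match ribosomal RNA.

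C3, the central complement component, had 1 peak in each list, and both were sites at nearly the same position. The mAb fold was 4.47 (lower bound 1.77) from 15 IP reads over 1 input read and the rAb fold 4.07 (2.26 to 6.49) from 16 over 3, and these intervals overlapped. Ahcyl1, a regulator of calcium release, had 7 mAb and 12 rAb peaks and 1 site in each list. At the mAb site, rAb peaks had 2.98 and 2.92 against 3.47, and at the rAb site the mAb peak had 2.68 against 3.35, so both sites had a partner under the cutoff of 3. Shroom3, an actin-binding protein of apical constriction, had 11 and 3 peaks with 1 site, in mAb. Its 2 pairs, neither of which held that site, had differences of 0.08 and 1.59. Myh9, the heavy chain of non-muscle myosin IIA, had 60 and 54 peaks with 2 and 16 sites. Its 51 pairs had a median difference of -0.57, near that of all pairs, and none was apart. The transcripts of the helicase itself and of its paralog had no site: Ddx5 had 14 and 6 peaks with a median difference of -0.59 over 6 pairs, and Ddx17 had 19 and 16 with -0.72 over 12 pairs.

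The recurrent word shown above lay mostly at or just past the 3′ ends of peaks. Words were counted in the peak and the 15 bases on either side of it. Leaving aside peaks that match ribosomal RNA, TCGGAAG was in 25 of 99 rAb site genes and 16 of 129 mAb site genes, and in 11 of the 41 genes with a site in both lists. With the flanks, 16.6% (11.01 to 23.5) of rAb sites and 8.89% (5.17 to 14.0) of mAb sites had it. It lay wholly inside the peak in 2 of these 25 rAb sites and in 2 of the 16 mAb sites, across the 3′ end in 9 and 3, and wholly past it in 14 and 11. Among peaks below the cutoff it was in 1.56% and 1.28%. Since the word was picked for being frequent in these sites, its share there is a description. Its place was not used in the choice: in 24 of 25 rAb sites and 14 of 16 mAb sites with the word, it began within 10 bases of the peak's 3′ end, as it did in 104 of 139 rAb and 167 of 207 mAb peaks below the cutoff. The reverse complement CTTCCGA began there in 8 of 36 rAb and 18 of 84 mAb peaks, and within 10 bases of the 5′ end in 12 and 39 of them, which included all 2 rAb and all 6 mAb sites that had it. Below the cutoff, paired peaks held the word more often (3.66% in mAb and 2.99% in rAb) than unpaired ones (0.781% and 0.938%). The 151 pairs with the word in peak or flank had a median difference of -1.09. The C3 peaks, which lie in coding sequence, have it in the flank, with 2 bases between the peak's 3′ end and the word. Without peaks that have the word in peak or flank, 38 genes had sites in both lists. The same letters stand near the start of the adapter that Illumina libraries of this kind carry, and the part of the adapter in these peaks was not tested.

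**Figure D4:**
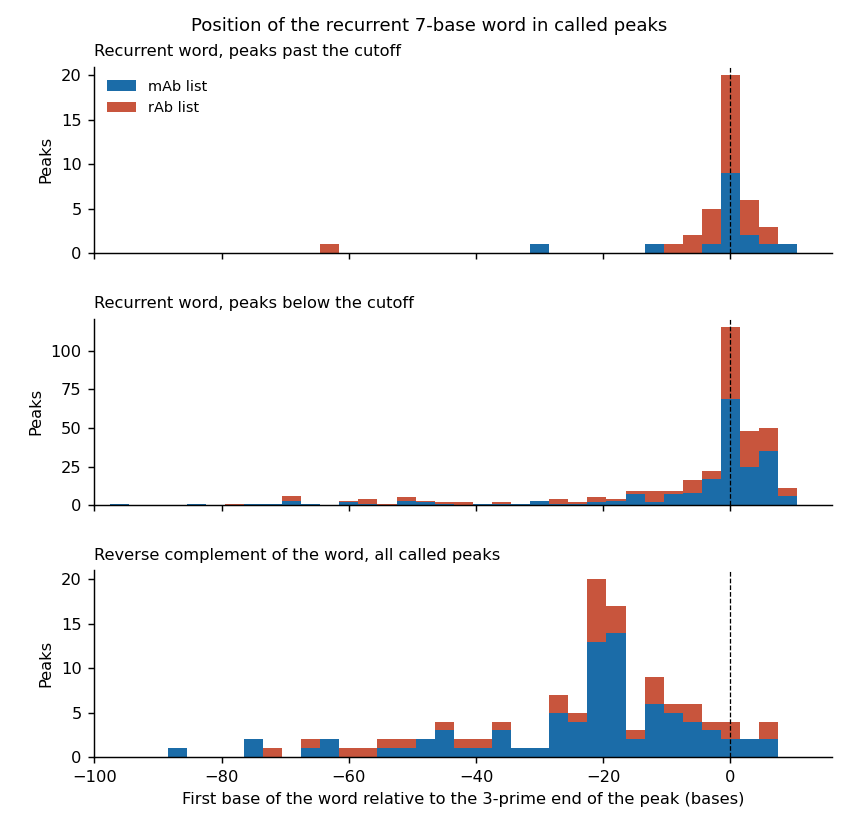
Position of the first base of the recurrent 7-base word, relative to the first base after the peak (0, dashed line), in sites (top) and peaks below the cutoff (middle), and of its reverse complement in all called peaks (bottom). Bars are stacked counts of mAb (blue) and rAb (red) peaks in bins of 3 bases. The word clusters at 0, with 24 of 25 rAb sites within 10 bases, against 8 of 36 rAb peaks for its reverse complement.

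The mAb sites without any overlapping rAb peak had another make-up. The recurrent word was in none of these 77 sites, with an exact 95% interval that reaches 4.68%. With the flanks, at least 1 of the G-rich words was in 20 of them (26.0%, 16.6 to 37.2), against 4.37% of mAb peaks below the cutoff and 3 of 151 rAb sites. The words can overlap each other, and they were picked from mAb sites with no rAb site, so this share is a description too. The median G and C content of the 77 sites was 68.6%, against 54.2% of all mAb peaks and 52.2% of rAb sites. Introns held 66.2% of them, against 24.8% of mAb peaks below the cutoff and 39.3% of mAb sites that overlap a rAb site. Of the 77, 53.2% (41.5 to 64.7) lay within 1000 bases downstream of an annotated transcript start, against 32.2% of mAb peaks below the cutoff. This nearness to a start was not particular to them. The share was 48.7% in paired mAb peaks below the cutoff and 46.2% (19.2 to 74.9) in the 13 rAb sites without a mAb peak. In mAb sites that overlap a rAb site it was 23.2%. Actb, Muc2 and Errfi1 each had such a site in a proximal intron.

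The genes called in 1 list alone were mostly thinly covered. Of the 2500 genes in the mAb list alone, 51% had a single peak, the deepest peak of a gene held a median of 3 IP reads, and 3.56% of the genes had a peak with at least 10 IP reads, against 18.2% of the shared genes. Of the 919 genes in the rAb list alone, 55.5% had a single peak and 2 genes reached 10 IP reads (0.218%, against 12.3% of the shared genes).

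The 29 mAb site genes absent from the rAb list had their best site in a proximal intron in 9 cases, a distal intron in 6, a non-coding exon in 5, the 5′ UTR in 4, coding sequence in 3 and the 3′ UTR in 2. Cdk5r2, an activator of the kinase Cdk5, led by −log10 p, with a 5′ UTR fold of 4.06 (2.60 to 5.99) from 45 over 4 reads. Me2, a mitochondrial malic enzyme, had 5.73 from 36 over 1. Errfi1, an inhibitor of EGF receptor signalling, had 4.61 (2.64 to 7.71) from 33 over 2 reads in the intron shown above. The protocadherin Pcdh10 had 4.52 in coding sequence, Cfap298, a factor of cilia, 4.26, and Mgst2, a glutathione transferase, 4.21. The genes with the most peaks in the mAb list and none in the rAb list were Clca1, a secreted protease of goblet cells (21 peaks), the cytochrome P450 Cyp2c55 (19), Nr3c2, the mineralocorticoid receptor (17), and Oit1 (14). On the rAb side they were Nfxl1 (7) and then Cct3, a chaperonin subunit, Col6a1, a collagen of the basement membrane, Cs, citrate synthase, and Zbtb38 (6 each).

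By gene function, mucus and goblet cell genes had the most mAb peaks per rAb peak of the 16 lists, and cytosolic ribosomal protein genes the fewest. Over all genes there were 1.80 mAb peaks per rAb peak. The 20 mucus and goblet cell genes had 166 mAb and 31 rAb peaks (5.35 per rAb peak), with 15 called in mAb and 7 in rAb. The 8 in the mAb list alone were 53.3% of those called in mAb, against 48.2% over all genes, and included Clca1, Zg16, Agr2, Bcas1 and Gcnt3. Fcgbp, a mucus protein that binds IgG, had 36 peaks in mAb and 1 in rAb. Muc2, the gel-forming mucin of the colon, had 35 and 12, and the membrane mucin Muc13 had 29 and 12. Where these genes had pairs, the folds were near the offset, with a median of -0.55 over 30 pairs against -0.67 over all. Muc2 was higher, at 0.01 over 14 pairs between -0.56 and 1.67.

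Solute and ion transport genes had 95 and 40 peaks (2.38), and 12 of their 17 called genes (70.6%, against 48.2% over all genes) were in the mAb list alone, among them the carbonic anhydrases Car1 and Car4 and the glucose transporter Slc2a1. Immediate-early response genes had 99 and 37 peaks (2.68). Atf3, a stress-induced transcription factor, had 17 and 1 with a mAb site of 4.65. Of the 22 genes called in mAb, 9 were in the mAb list alone, among them Fosb, Egr1, Klf4 and Nr4a1. That is 40.9%, below the 48.2% over all genes. Cell junction genes had 263 and 119 (2.21), with 41 and 17 on Cdh1, the E-cadherin gene, and 25 and 5 on its partner Ctnnd1.

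Wnt pathway and crypt stem genes (206 and 108), myosin heavy chains (211 and 115) and keratin, actin and brush border genes (327 and 184) lay near the overall ratio. Tcf7l2, the main Wnt transcription factor of the gut, had 29 and 4, and Nkd1, a Wnt feedback inhibitor, had 35 and 30. Krt8 had 4 sites in mAb and none in rAb. RNA-handling genes came next, with 121 and 75 peaks on helicases and 242 and 155 on SR proteins and hnRNPs. In that last list Srsf10 had a site of 5.24 in rAb, and the pairs farthest apart were an intron of Hnrnpa3 (4.37 in mAb and 2.39 in rAb) and the 3′ UTR of Tra2b (0.56 and 3.98, from 3 over 3 and 5 over 1 reads). Complement and defence genes (86 and 59) held a coding pair of Lypd8, a mucosal antibacterial protein, with 1.37 in mAb and -1.25 in rAb.

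At the other end, cytosolic ribosomal protein genes had 327 and 290 peaks (1.13), with 68 of 83 genes called in both lists. Each list called 70 of them. The 2 in the mAb list alone were 2.86% of those called in mAb, against 48.2% over all genes. Their 245 pairs had a median difference of -0.70 (-3.51 to 1.91), and Rpl5 had 2 sites in each list. Collagen and matrix genes had 191 and 167 (1.14), heat shock and ER chaperone genes 106 and 87 (1.22), and translation factor genes 216 and 177 (1.22). Eif4g2 and Pabpc1 had more rAb than mAb peaks (25 against 20, and 23 against 20). Nuclear oxidative phosphorylation genes had 106 and 73 (1.45), and nuclear long non-coding RNAs 74 and 60 (1.23). Medians of the pair differences ranged from -0.73 (collagen and matrix) to -0.17 (nuclear long non-coding RNAs) across the 16 lists, so they differed less than the peak ratios did.

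**Figure D5:**
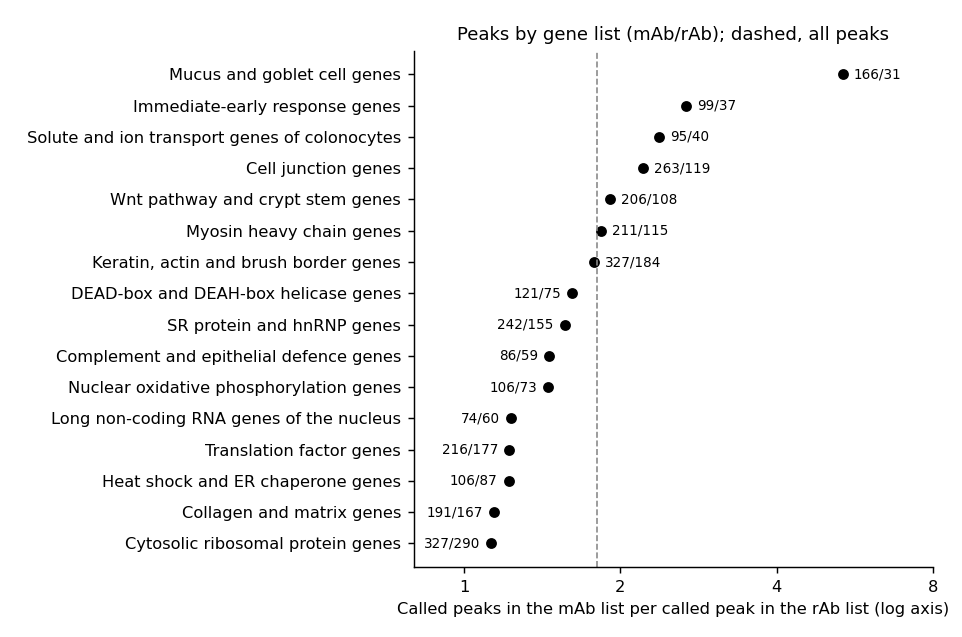
Called mAb peaks per called rAb peak for 16 gene lists on a log axis, with the peak numbers (mAb/rAb) beside each point. The dashed line is the ratio of all peaks, 1.80. Mucus and goblet cell genes lie at 5.35 and cytosolic ribosomal protein genes at 1.13.

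Markers of cell types gave unequal ratios too. Of 19 colonic epithelium markers, 18 were called in mAb and 11 in rAb, with 247 and 93 peaks, and Cdx2 was called in neither. The 7 in the mAb list alone were 38.9% of those called in mAb, below the 48.2% over all genes. None of 9 small intestine enterocyte markers was called in either list. Stroma, muscle and endothelium markers had 93 and 77 peaks (6 and 4 of 10 called), immune markers 20 and 17, and neuron and glia markers 0 and 2. The epithelial ratio was thus 2.66, and those of stroma and immune cells 1.21 and 1.18. Muc2, Tff3, Fcgbp, Clca1 and Zg16, which are also in the mucus list, gave 100 of the epithelial mAb peaks and 14 of the rAb peaks. The other 14 epithelial markers had 147 and 79 (1.86), near the ratio of all peaks. RNA levels were not part of these lists, fewer cells of a type and less RNA per cell cannot be told apart in bulk samples, and the part of cell make-up in the differences between the lists was not tested.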

How the data were processed

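eCLIPseq was done on colonic IECs with 1 CLIP sample and 1 size-matched input per antibody. Per the submitters' processing notes, the authors used cutadapt 1.9.1, STAR 2.4.0i and SAMtools 1.4.1 with mm10. The deposited lists give, for each peak, −log10 p (capped at 400) and the log2 fold of IP over input after depth correction. No read totals were used here, so library depth is known only as a ratio. A −log10 p of 0 was given to peaks with a log2 fold of at most 0.24 (mAb) or 0.07 (rAb), and their reads could not be traced.

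Peaks were assigned to genes and regions of GENCODE M21 in the order coding sequence, 5′ UTR, 3′ UTR, non-coding exon, proximal and distal intron. Whole reads were traced from the deposited fold and p, and exact (Clopper-Pearson) 95% intervals were computed from them. An input of 1 read may be a pseudocount, so its upper bound is open. Peaks aligning to any of 65 ribosomal RNA references (at least 20 bases at 90% identity, blastn 2.17.0) were set apart for the word search. Python 3.11.15, pandas 2.3.3, numpy 2.4.6 and scipy 1.17.1 were used. Read tracing and the comparison of intervals were tested on simulated reads. These were drawn for the pairs with at least 10 traced IP reads on both sides, so pairs with fewer reads were not covered.

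The members, the gene lists and the genes of the study that are named were chosen with earlier results of these data known. Named genes were those with the highest lower fold among pairs of sites, the pairs with intervals apart, the best sites and most peaks of genes in 1 list, and the outermost pairs of each gene list. Other overlaps, depths, regions, thresholds and centring were tried as alternatives. A list of reproducible peaks without a sample label was not used. Some items are not reported here.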

Additional observations from a re-analysis of the deposited data

Results flagged for a closer look

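A 5′ UTR pair of Prdx2, which encodes a peroxide-reducing enzyme, drew attention because the folds had opposite signs and one side was a site. The rAb log2 fold was 4.11 from 11 IP over 2 input reads (−log10 p 5.12), and the mAb fold was -0.61 with a −log10 p of 0. The difference was not tested. It was the single such case with a site among 758 pairs of opposite sign, of which 666 had the rAb fold above 0 and the mAb fold below, and 92 the reverse.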

How the results depend on the processing

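Of 58 alternatives to the main results, 27 kept the value within its interval or within 1.5 times, 30 moved it further and 1 turned its sign: with at least 2 input reads in both lists, the proximal intron median went from 0.36 to -0.095. That setting moved the median of all pairs to -0.51. With an overlap of at least 50% of both peaks there were 1934 pairs, with a fold above 0 in both lists 1966, and with at least 5 IP reads in both 988. The shared genes were 67.3% of the rAb genes with at least 5 IP reads, 70.0% with a fold above 0, 79.8% with at least 2 peaks and 72.3% on exonic peaks, and 38.4%, 49.7% and 61.6% of the mAb genes under the first 3. The median difference was -0.71 with 1 value per gene and -0.61 with at least 10 IP reads. At a threshold of 2, the mAb fold was higher in 54 pairs and the rAb fold in 302. The pairs with the mAb interval above were 4 with 99% intervals, 4 with 1 pair per peak and 4 with 50% overlap, and those with the rAb interval above were 30 with 50% overlap. Site genes in both lists were 29 at a −log10 p of 5, 20 at a fold of 4 and 118 at a fold of 1. Coding sequence was 54.1% of paired mAb and 54.4% of paired rAb peaks by peak midpoint, and 48.4% and 48.0% with at least 5 IP reads. Chosen after seeing the data, like the setting of at least 2 input reads, centring on the median gave 476 and 508 pairs, shifted intervals gave 56 pairs with mAb above and 9 with rAb above in place of 7 and 51, so which side held more pairs apart depended on the shift, and sets without ribosomal RNA matches or without the recurrent word gave 41 and 38 site genes in both lists. The causes were not tested. No paired analysis was possible because each antibody had 1 merged list, and no replicate could be left out for the same reason. Depth limits the calls, with 3 IP reads the commonest case.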
